A study of Mus musculus with 37 samples.

Results

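Fos, Fosb, Fosl1, Fosl2, Jun, Junb, Jund, Egr1, Egr2 and Egr3 were followed through every medium and time of cardiac fibroblasts, every medium of ventricular myocytes and the nonmyocyte classes of the injured heart. These 10 immediate early genes were taken by name, out of 30892 genes listed for the fibroblasts, 20158 for the myocytes and 31053 for each single-cell library, and all 10 were listed in each table. They were chosen by name with the measured changes of these data already known, and which of those values were used is not recorded, so their levels are given as a description and no p is independent support. The tests below set the size of a difference against the spread between replicate libraries. All 10 passed the filter on low counts in both bulk tables. In build GRCm38.p6 (RefSeq) the genes lie at chr12:85473890-85477274 (Fos), chr7:19302696-19310118 (Fosb), chr19:5447698-5455938 (Fosl1), chr5:32136472-32157840 (Fosl2), chr4:95049036-95052222 (Jun), chr8:84976909-84978748 (Junb), chr8:70697739-70700616 (Jund), chr18:34861207-34864956 (Egr1), chr10:67534469-67542188 (Egr2) and chr14:70077317-70082613 (Egr3).

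The fibroblasts (CFs) were an immortalized line from wild type C57BL/6 mice, starved of serum for 24 h and then given medium conditioned by myocytes that had received vehicle, ENPP1, ATP, ENPP1 with ATP (ENPP1+ATP) or AMP. ENPP1 is an ectonucleotidase that splits extracellular ATP into AMP and pyrophosphate, and the comparison asks what CFs do when myocytes have met that product. RNA was taken after 24 h or 48 h, with 2 libraries in each of 10 groups. The myocytes (NRVMs) were neonatal rat ventricular cells that, per the labels, were starved alike and then given conditioned media of the same 5 names for 24 h, with 3 libraries in each of 5 groups. Nonmyocytes came from C57BL/6 hearts 7 days after myocardial infarction, as 1 ENPP1CKO library (Enpp1 floxed, removed by the fibroblast driver Col1a2CreERT with tamoxifen from 5 days before injury) and 1 control library whose genotype is labelled wild type. The number of hearts in each was not given in the sources used here.

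Fos and Jun proteins pair to form AP-1, a transcription factor that binds short palindromic sites in DNA. Jun proteins can pair with each other, whereas Fos proteins need a partner. Egr proteins are zinc finger factors that bind GC-rich sites. Most of these genes are switched on within minutes of a growth factor, cytokine, purine or stretch signal without new protein synthesis, through serum response factor and its ternary complex partners at CArG boxes and through CREB at cAMP response elements, and then fall again as dual-specificity phosphatases and Nab corepressors act. Jund and Fosl2 are usually less transient, and Fosl1 is a later gene that AP-1 itself can activate. In the heart they mark injury, stretch and the isolation of cells.

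Promoter windows, from 250 bases before to 50 after a start site, were read for 7 members from the RefSeq table of build GRCm38.p6, the assembly that mm10 names. Shown are those of Fos, Fosb, Jun and Egr2, which rose together in CFs at 24 h and whose windows hold matches to the motifs searched. Junb also rose and its window also holds a match, but that window is not shown. The Fos window is chr12:85473640-85473939 on the plus strand, Fosb chr7:19309996-19310295 on the minus strand, Jun chr4:95052173-95052472 on the minus strand and Egr2 chr10:67537619-67537918 on the plus strand. Capitals mark matches to the motifs searched.

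Fos: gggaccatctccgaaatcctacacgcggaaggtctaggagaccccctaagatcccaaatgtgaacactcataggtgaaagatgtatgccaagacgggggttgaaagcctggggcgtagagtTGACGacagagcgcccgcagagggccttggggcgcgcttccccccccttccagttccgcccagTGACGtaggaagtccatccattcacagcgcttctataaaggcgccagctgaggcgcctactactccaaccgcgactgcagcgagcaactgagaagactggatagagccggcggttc

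Fosb: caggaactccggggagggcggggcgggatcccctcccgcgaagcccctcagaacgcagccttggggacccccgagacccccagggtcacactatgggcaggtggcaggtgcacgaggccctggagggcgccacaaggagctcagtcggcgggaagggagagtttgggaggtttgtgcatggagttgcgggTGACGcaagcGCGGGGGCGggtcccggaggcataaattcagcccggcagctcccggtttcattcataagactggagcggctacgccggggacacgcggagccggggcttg

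Jun: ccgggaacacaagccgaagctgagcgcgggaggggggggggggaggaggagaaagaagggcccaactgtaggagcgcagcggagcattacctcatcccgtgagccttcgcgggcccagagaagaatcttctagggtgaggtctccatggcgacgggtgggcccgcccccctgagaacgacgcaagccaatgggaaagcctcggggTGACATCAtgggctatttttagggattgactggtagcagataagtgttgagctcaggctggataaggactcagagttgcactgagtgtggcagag

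Egr2: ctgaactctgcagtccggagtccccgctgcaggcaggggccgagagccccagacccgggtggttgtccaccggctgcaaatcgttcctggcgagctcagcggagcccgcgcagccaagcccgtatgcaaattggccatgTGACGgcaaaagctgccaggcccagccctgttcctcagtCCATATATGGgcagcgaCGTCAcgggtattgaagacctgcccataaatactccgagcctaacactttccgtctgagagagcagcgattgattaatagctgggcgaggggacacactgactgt

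Motifs were searched on both strands, and any match is a description of letters and not a site of binding. The CREB half-site TGACG was present in the windows of Fos, Fosb, Junb and Egr2, and in 20.8% of 32851 promoter windows of the same length. In Fos it began 129 and 66 bases before the start, and in Fosb 60 bases before. The longer CRE-like letters TGACNTCA, which overlap the half-site where N is G, stood in Jun alone of the 7 members (45 bases before the start; 8.83% of windows). A CArG box stood in Egr2 alone of the 7 (72 bases before the start in the window shown; 1.63% of windows). The EGR letters GCGNGGGCG stood in Fosb and Fosl2 (5.55% of windows), and the AP-1 letters TGANTCA were in none of the 7 (7.81% of windows).

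Depth ran from 32184799 to 115824659 counts per library in CFs and from 13481389 to 16977980 in NRVMs, and levels are counts per 1000000 (CPM) after TMM scaling. The deepest library was vehicle at 24 h, replicate 1. Without it every member kept its direction and its call in ENPP1+ATP and AMP medium at 24 h except Egr3 in ENPP1+ATP medium. Of 10 fibroblast markers, Lum and Mfap5 reached at most 0.336 CPM in any CF library. At 24 h the list summed to 7206 to 7606 CPM in vehicle and 5227 to 5558 in ATP medium. It summed to 3600 to 3692 in ENPP1+ATP and 2823 to 3051 in AMP medium. At 48 h the sums were 7115 to 7519 in vehicle and 6916 to 6936 in ATP medium. They were 3872 to 4091 in ENPP1+ATP and 4074 to 4358 in AMP medium. The part of these markers in the results below was not tested. Enpp1, the deleted gene, stood at 28.7 CPM in ENPP1CKO fibroblast-like cells and 130 CPM in control ones (473 and 1351 counts).

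In CFs at 24 h, 9 of the 10 members were higher and Fosl2 was lower in ENPP1+ATP and in AMP medium. Against vehicle, ENPP1+ATP medium called 9 members higher and 1 lower, where 49.1% of 17879 genes were called in either direction and 23.9% as higher. AMP medium called the same 9 higher and Fosl2 lower, where 52.8% of genes were called and 25.3% as higher. The median log2 difference of the members was 1.68 in ENPP1+ATP and 2.53 in AMP medium, beside −0.00456 and −0.00583 over all genes. These comparisons share the vehicle libraries. Library values and standard errors (SE) follow by family, and every p is from edgeR's quasi-likelihood test, adjusted over all genes tested.

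**Figure D1:**
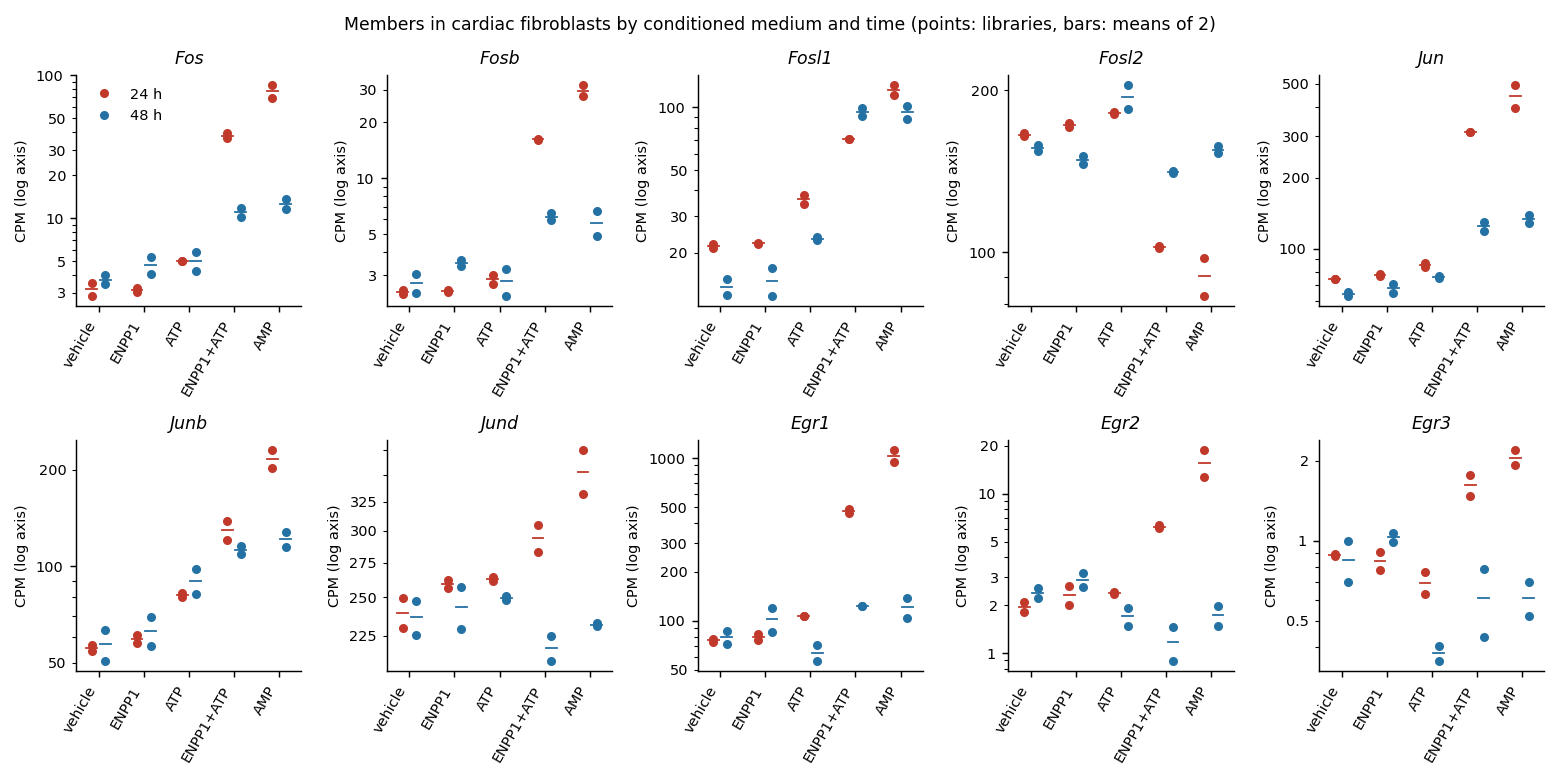
CPM of each member in CFs (vertical log axis) by conditioned medium; points are libraries (24 h red, 48 h blue) and bars the means of 2. Fos at 24 h stood between 2.87 and 5.05 CPM in vehicle, ENPP1 and ATP medium and between 36.6 and 85.5 in ENPP1+ATP and AMP medium, while Fosl2 ran the other way.

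Fos, the founding AP-1 partner, had the widest range of the 10 genes over the CF groups (4.59 on the log2 scale). It stood at 2.87 and 3.53 CPM in vehicle, 39.2 and 36.6 in ENPP1+ATP and 85.5 and 69.0 in AMP medium at 24 h. Neither pair overlapped vehicle, and the difference was 3.60 (SE 0.146, adjusted p = 3.3e-15) in ENPP1+ATP and 4.63 (SE 0.148, adjusted p = 2.71e-17) in AMP medium. Fosb, which makes another Fos protein and a stable short form, gave 2.38 and 2.498 CPM in vehicle, 16.2 and 16.2 in ENPP1+ATP and 31.8 and 27.6 in AMP medium. It followed Fos at a smaller size, with differences of 2.735 (SE 0.158, adjusted p = 4.91e-13) and 3.61 (SE 0.159, adjusted p = 2.55e-15). Fosl1, which encodes Fra-1, rose from 22.0 and 21.1 CPM to 70.2 and 70.3 in ENPP1+ATP medium (1.70, SE 0.1025, adjusted p = 3.81e-11) and to 128 and 114 in AMP medium (2.485, SE 0.103, adjusted p = 1.02e-13). Fosl2, which encodes Fra-2, was the member that fell: 167 and 164 CPM in vehicle became 102 and 103 in ENPP1+ATP and 83.1 and 97.7 in AMP medium. Its libraries did not overlap vehicle, and it fell by 0.69 (SE 0.0576, adjusted p = 2.97e-10) and by 0.87 (SE 0.0575, adjusted p = 3.78e-12) on the log2 scale.

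Among the Jun genes the order of change was Jun, Junb, Jund in both media. Jun, the transactivating partner, stood at 74.2 and 74.7 CPM in vehicle, 311.5 and 311.9 in ENPP1+ATP and 494 and 396 in AMP medium at 24 h. The differences were 2.07 (SE 0.0723, adjusted p = 8.01e-16) and 2.58 (SE 0.0732, adjusted p = 1.28e-17). Junb, a weaker activator that can oppose Jun, went from 54.3 and 56.9 CPM to 121 and 139 in ENPP1+ATP medium (1.23, SE 0.123, adjusted p = 1.73e-06) and to 230 and 203 in AMP medium (1.96, SE 0.124, adjusted p = 1.16e-08). Jund, the member most abundant at rest, changed least of the 9 that rose. It gave 249 and 229.5 CPM in vehicle, 305 and 283.5 in ENPP1+ATP (0.30, SE 0.0618, adjusted p = 0.000285) and 374 and 332 in AMP medium (0.56, SE 0.0617, adjusted p = 3.58e-08).

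Egr1, the most studied Egr factor, was second to Fos in range (4.01 on the log2 scale). It stood at 77.6 and 74.3 CPM in vehicle, 459 and 486 in ENPP1+ATP and 1115 and 941 in AMP medium at 24 h. The differences were 2.635 (SE 0.183, adjusted p = 2.83e-07) and 3.76 (SE 0.190, adjusted p = 1.43e-08), larger than the spread of the replicates. Egr2 was a low gene at rest, with 2.09 and 1.825 CPM, and reached 6.34 and 6.11 in ENPP1+ATP (1.65, SE 0.219, adjusted p = 7.28e-07) and 18.7 and 12.7 in AMP medium (2.98, SE 0.219, adjusted p = 2.55e-11). Egr3, itself a target of other Egr factors, was the lowest member, with 0.876 and 0.889 CPM in vehicle, 1.76 and 1.47 in ENPP1+ATP and 2.19 and 1.92 in AMP medium. It rose by 0.87 (SE 0.323, adjusted p = 0.0276) and 1.215 (SE 0.317, adjusted p = 0.00227), and the first call was lost without ENPP1+ATP replicate 1 (adjusted p = 0.158), vehicle replicate 1 (adjusted p = 0.136) or vehicle replicate 2 (adjusted p = 0.102), and without the filter on low counts (adjusted p = 0.0784).

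Levels were compared between genes per kilobase of exon. In vehicle at 24 h the order was Jund (143.5 CPM per kb), Junb (24.2), Jun (23.4), Fosl2 (17.1), Egr1 (16.9), Fosl1 (10.6), Fos (1.36), Egr2 (0.577), Fosb (0.391) and Egr3 (0.200), each a mean of 2. Fosl2 (SD 0.172) and Egr1 (SD 0.525) lay within each other's spread there. In AMP medium at 24 h Egr1 (229 ± 27.4, SD) and Jund (212 ± 18.1) led and lay within each other's spread, followed by Jun (140), Junb (94.0), Fosl1 (59.6) and Fos (32.9). Fosl2 stood at 9.34 CPM per kb there, below Fos. 

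Exons of 4 members overlap those of a gene on the other strand, and whether the counting used strand is not given in the sources used here. Ccdc85b shares 1163 bases with Fosl1, Prdx2 173 with Junb, and the antisense genes Junos 232 with Jun and Gm11175 877 with Jund. Ccdc85b and Prdx2 fell in ENPP1+ATP medium at 24 h (−0.35 and −0.28, adjusted p = 0.00128 and 0.000279) where Fosl1 and Junb rose. Junos rose with Jun (1.72, SE 0.342, adjusted p = 0.00016). Gm11175 gave 0.32 (SE 0.354, adjusted p = 0.492) there and 0.555 (SE 0.3455, adjusted p = 0.206) in AMP medium, and reads of the shared bases cannot be told apart.

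ENPP1 medium alone called no member at either time, and no gene of the whole table (0.0%). At 24 h 0 members and 249 genes had an unadjusted p under 0.05 in edgeR's test, and at 48 h 2 members and 743 genes, while DESeq2 called 0 genes at both times. The 95% interval of the difference from vehicle at 24 h ran from −0.38 to 0.40 for Fos, from −0.10 to 0.22 for Jun and from −0.33 to 0.47 for Egr1. These intervals leave out the differences seen in ENPP1+ATP medium at 24 h. At 48 h they ran from −0.03 to 0.73 for Fos, from −0.09 to 0.24 for Jun and from −0.04 to 0.77 for Egr1, and that of Egr1 includes its difference in ENPP1+ATP medium at 48 h (0.63). Egr1 was called higher in ENPP1 medium at 48 h without the filter on low counts (0.37, adjusted p = 3.48e-08).

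ATP medium moved 3 members at each time, by less than ENPP1+ATP or AMP medium did except for Fosl2 at 48 h. At 24 h Fos, Fosl1 and Junb were called higher (3 of 10, against 11.1% of genes in either direction, 4.77% as higher and 6.32% as lower). Fos stood at 5.05 and 4.98 CPM (0.69, SE 0.163, adjusted p = 0.00632), Fosl1 at 37.9 and 34.4 (0.74, SE 0.104, adjusted p = 5.18e-05) and Junb at 82.2 and 80.02 (0.55, SE 0.124, adjusted p = 0.0115). The Fosl1 call held without each library in turn. The Fos call was lost without ATP replicate 1 (adjusted p = 0.0591) or vehicle replicate 1 (adjusted p = 0.213), and the Junb call without any 1 of the 4 libraries compared (adjusted p = 0.0587 to 0.135). At 48 h Fosl1 (0.77, SE 0.113, adjusted p = 0.00012), Junb (0.66, SE 0.124, adjusted p = 0.00439) and Fosl2 were called higher, where 7.83% of genes were called, 5.35% as higher and 2.48% as lower. Fosl2 in ATP medium at 48 h reached 185 and 205 CPM against 159 and 154 in vehicle, its highest level in CFs (0.315, SE 0.0568, adjusted p = 0.000511), and the Junb call was lost without ATP replicate 1 (adjusted p = 0.0579). Jun (0.20, adjusted p = 0.0863 at 24 h, and 0.23, adjusted p = 0.0550 at 48 h) was called higher in ATP medium with DESeq2 (adjusted p = 0.0304 and 0.0214) and, at both times, without either AMP library of 24 h (adjusted p = 0.00325 to 0.0099). Egr1 in ATP medium at 24 h (0.49, adjusted p = 0.124) was called higher with DESeq2 (adjusted p = 0.0315). Without the filter on low counts Egr1 (adjusted p = 2.06e-16) and Jun (adjusted p = 0.0152) were called higher at 24 h, and at 48 h Jun (adjusted p = 0.00196) and Fos (adjusted p = 0.0151) higher and Egr1 lower (−0.32, adjusted p = 1.23e-06). At 48 h Egr3 gave −1.15 in ATP medium (SE 0.371, adjusted p = 0.0592) and was called lower without either ENPP1+ATP library of 48 h (−1.14, adjusted p = 0.03895 and 0.0394), and Fos was called higher without ATP replicate 2 (0.65, adjusted p = 0.0317).

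Adding ENPP1 to ATP separated the 2 media for all 10 members at 24 h. Against ATP alone, 9 were higher and Fosl2 lower in ENPP1+ATP medium, where 43.9% of genes were called, 21.8% as higher and 22.1% as lower. Fos differed by 2.92 (SE 0.143, adjusted p = 3.41e-13), Fosb by 2.505 (SE 0.161, adjusted p = 9.17e-12), Egr1 by 2.145 (SE 0.180, adjusted p = 2.03e-06) and Jun by 1.87 (SE 0.0723, adjusted p = 3.08e-14). The smallest rise was that of Jund (0.16, SE 0.0619, adjusted p = 0.0376), a call lost without ENPP1+ATP replicate 1 (adjusted p = 0.311) or either ATP library (adjusted p = 0.154 and 0.116), and without 4 libraries of other groups (up to an adjusted p of 0.0522). Egr3 (1.21, SE 0.338, adjusted p = 0.00484) was lost without ATP replicate 2 (adjusted p = 0.0613). At 48 h the comparison called Fos (1.12), Fosb (1.17), Fosl1 (2.03), Jun (0.71) and Egr1 (0.95) higher and Fosl2 (−0.46) and Jund (−0.20) lower, where 39.5% of genes were called, 18.2% as higher and 21.3% as lower. The fall of Jund at 48 h was lost without ENPP1+ATP replicate 2 (adjusted p = 0.1096). Junb (0.32, adjusted p = 0.0542) was called higher with DESeq2 (adjusted p = 0.0311) and without ATP replicate 1 or any of the ENPP1 or vehicle libraries of 48 h (adjusted p = 0.0250 to 0.0369), and Egr2 lower without ENPP1+ATP replicate 2 (adjusted p = 0.0256).

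AMP medium gave higher levels than ENPP1+ATP medium for 8 members at 24 h, in a comparison that called 6.25% of genes, 2.60% as higher and 3.65% as lower. The differences were 1.33 for Egr2 (SE 0.203, adjusted p = 0.000291), 1.12 for Egr1 (SE 0.171, adjusted p = 0.00455), 1.03 for Fos (SE 0.120, adjusted p = 2.17e-05), 0.87 for Fosb, 0.78 for Fosl1, 0.74 for Junb, 0.51 for Jun and 0.26 for Jund. In each of these genes both AMP libraries stood above both ENPP1+ATP libraries. With 2 libraries per group such separation says little by itself. In ENPP1 medium at 24 h, 5 of 10 members stood apart from vehicle and 0 were called. The share of all genes whose libraries stand apart was not counted. Without ENPP1+ATP replicate 1 the calls of Egr1 (adjusted p = 0.0597) and Junb (adjusted p = 0.0575) were lost, as was that of Jund without AMP replicate 1 (adjusted p = 0.165) or ENPP1+ATP replicate 2 (adjusted p = 0.144). Fosl2 (−0.17, adjusted p = 0.0756) was called lower without AMP replicate 2 (−0.305, adjusted p = 0.00389) and with DESeq2 (adjusted p = 0.0487). At 48 h no member was called between these media (29 genes or 0.162% were called, 0.0895% as higher and 0.0727% as lower), with 2 members and 2460 genes at an unadjusted p under 0.05, and DESeq2 called 0 members and 125 genes. The 95% interval at 48 h ran from −0.12 to 0.50 for Fos, from −0.22 to 0.20 for Fosl1 and from −0.05 to 0.26 for Jun. That of Egr2 ran from −0.03 to 1.17 (0.57, adjusted p = 0.35), and that of Fosl2, from 0.01 to 0.26, left out 0 (0.14, adjusted p = 0.281).

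By 48 h the members had parted. Fosl1 was then the most raised, Fos, Fosb, Jun and Egr1 stood above vehicle by less than at 24 h in both media, and Junb was above vehicle as well. ENPP1+ATP medium called 6 members higher and 2 lower, where 45.2% of genes were called, 20.8% as higher and 24.4% as lower. AMP medium called the same 6 higher and none lower, where 44.0% were called and 21.1% as higher. Fosl1 stood at 12.5 and 15.02 CPM in vehicle, 91.3 and 99.6 in ENPP1+ATP (2.80, SE 0.109, adjusted p = 4.68e-14) and 87.7 and 102 in AMP medium (2.79, SE 0.109, adjusted p = 4.56e-14). Fos stood at 3.46 and 3.97 CPM in vehicle, 11.8 and 10.3 in ENPP1+ATP (1.58, SE 0.154, adjusted p = 9.22e-09) and 11.6 and 13.6 in AMP medium (1.765, SE 0.152, adjusted p = 1.02e-09). Neither gene's treated libraries overlapped vehicle.

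Fosb at 48 h differed from vehicle by 1.19 in ENPP1+ATP and 1.08 in AMP medium, Jun by 0.95 and 1.05, and Junb by 0.98 and 1.09, with an adjusted p of 2.01e-05 or less. Egr1 had come down to 123.5 and 122.5 CPM in ENPP1+ATP and 104 and 139 in AMP medium, against 72.4 and 87.0 in vehicle (0.63, SE 0.179, adjusted p = 0.0144, and 0.61, SE 0.179, adjusted p = 0.0172). The first Egr1 call was lost without ENPP1+ATP replicate 1 (adjusted p = 0.0550) or vehicle replicate 1 (adjusted p = 0.118), and the second without AMP replicate 2 (adjusted p = 0.161) or vehicle replicate 1 (adjusted p = 0.133). Egr2 was by then below vehicle in ENPP1+ATP medium, at 0.895 and 1.46 CPM against 2.21 and 2.56 (−1.03, SE 0.258, adjusted p = 0.00191). That call was lost without ENPP1+ATP replicate 1 (−0.70, adjusted p = 0.0638). In AMP medium Egr2 gave 1.49 and 1.965 CPM (−0.46, SE 0.242, adjusted p = 0.132). Egr3 and Jund had an adjusted p of 0.115 or more in both media, though Jund was called lower in ENPP1+ATP medium without vehicle replicate 1 (adjusted p = 0.04997). Fosl2, at 142 and 141 CPM against 159 and 154, was called lower in ENPP1+ATP medium by 0.15 (SE 0.0572, adjusted p = 0.0382), a call lost with DESeq2 (adjusted p = 0.0988), with edgeR on DESeq2's size factors (adjusted p = 0.0852), without either library of ENPP1+ATP or vehicle at 48 h (adjusted p = 0.0606 to 0.198) and without either ENPP1+ATP library of 24 h (adjusted p = 0.0516 and 0.0517).

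**Figure D2:**
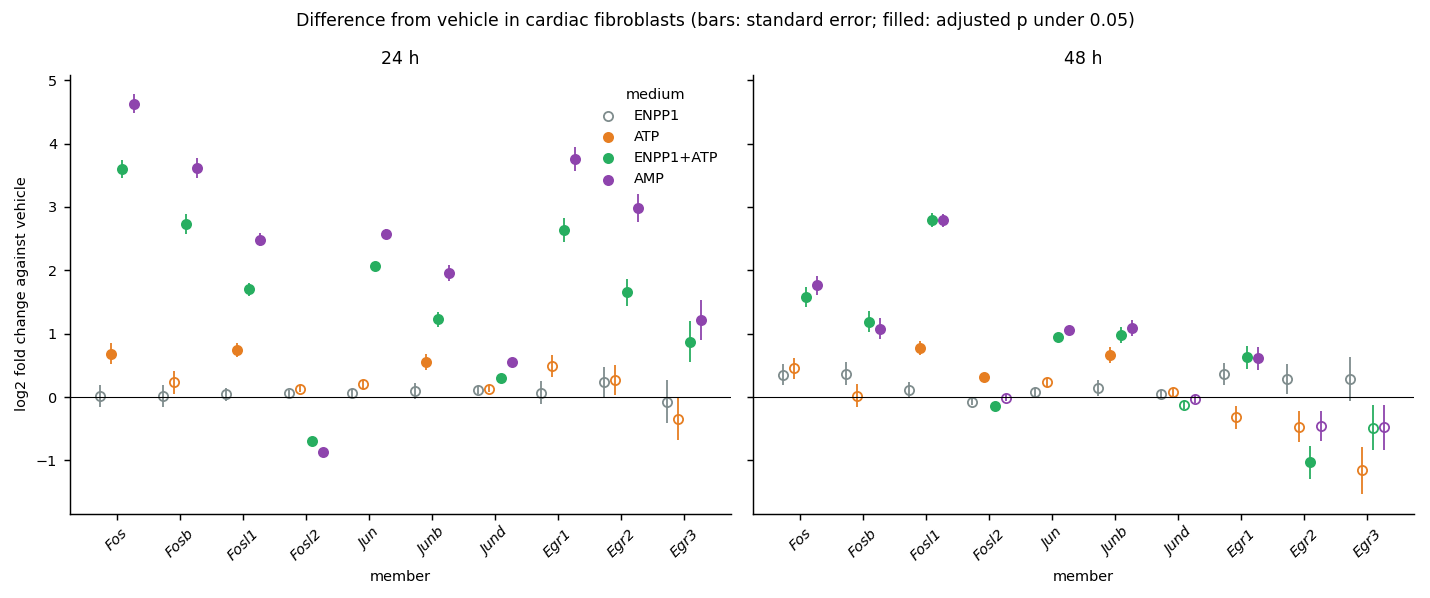
Log2 fold change of each member against vehicle in CFs at 24 h (left) and 48 h (right), with standard errors; colours are media and filled points have an adjusted p under 0.05 in edgeR's test. Fos reached 4.63 in AMP medium at 24 h and 1.765 at 48 h, whereas Fosl1 stood at 2.485 and 2.79.

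The difference from vehicle changed with time in 9 of 10 members for ENPP1+ATP medium (7 toward lower and 2 toward higher values, where 30.0% of genes were called, 14.9% as lower) and in 9 of 10 for AMP medium (8 lower and 1 higher, where 31.7% were called, 14.4% as lower). Fos lost 2.03 (SE 0.213, adjusted p = 1.23e-07) of its ENPP1+ATP difference and 2.86 (SE 0.211, adjusted p = 4.75e-10) of its AMP difference. Egr2 lost most in both media, 2.68 (SE 0.337, adjusted p = 1.14e-06) and 3.44 (SE 0.323, adjusted p = 1.13e-08). Fosl1 gained 1.10 in ENPP1+ATP medium (SE 0.147, adjusted p = 9.65e-06), and in AMP medium its value was 0.30 (SE 0.146, adjusted p = 0.129), called without AMP replicate 1, vehicle replicate 2 or either ENPP1 library of 48 h (adjusted p = 0.0473 to 0.0495). Fosl2, low at 24 h, gained 0.55 (SE 0.0811, adjusted p = 1.1e-05) and 0.86 (SE 0.0808, adjusted p = 1.22e-08). For Junb the change did not pass in ENPP1+ATP medium (−0.25, SE 0.174, adjusted p = 0.332), though it was called without the filter on low counts (−0.23, adjusted p = 0.0405). Junb lost 0.87 of the AMP difference (SE 0.173, adjusted p = 0.00162). The Egr3 value for ENPP1+ATP (−1.36, SE 0.480, adjusted p = 0.0345) was lost without vehicle or ENPP1+ATP libraries (5 of 8 in turn, adjusted p = 0.0807 to 0.182), with DESeq2 (adjusted p = 0.0507) and without the filter on low counts (adjusted p = 0.0793), and that for AMP without vehicle replicate 2 of 48 h (adjusted p = 0.0655).

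From 24 h to 48 h in vehicle itself, 1 member moved, where 4.88% of genes were called and 3.2% as lower. Fosl1 fell by 0.65 (SE 0.111, adjusted p = 0.00133), a call lost without vehicle replicate 1 of 48 h (adjusted p = 0.0529). In ENPP1+ATP medium 2 members rose and 7 fell between the times (40.7% of genes called, 19.5% as higher and 21.2% as lower), and in AMP medium 1 rose and 9 fell (43.1%, 22.3% as higher and 20.8% as lower). Egr1 fell by 1.94 in ENPP1+ATP and by 3.08 in AMP medium, and Jun by 1.33 and 1.73. The fall of Fosl1 in AMP medium, by 0.35 (adjusted p = 0.00514), was lost without AMP replicate 1 of 24 h or of 48 h (adjusted p = 0.0844 and 0.109). In ATP medium Egr1 fell by 0.74 (adjusted p = 0.0193) and Fosl1 by 0.63 (adjusted p = 0.000375), where 14.8% of genes were called (8.34% higher, 6.44% lower), and the Egr1 call was lost without either ATP library of 24 h or replicate 2 of 48 h (adjusted p = 0.0844 to 0.155). In ENPP1 medium (7.95% of genes called, 3.06% higher and 4.89% lower) Fos was called higher and Fosl1 and Fosl2 lower, and each of these calls was lost without at least 1 ENPP1 library (adjusted p = 0.0670 to 0.446).

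Over the 10 CF groups the gene whose centred profile lay nearest to that of Fos, by root mean square difference of mean log2 CPM, was Fosb (0.358), followed by Egr1 (0.487), Trp53cor1 (0.495), Fam222a (0.515) and Nrip3 (0.537). For Egr1 it was Fosb (0.287), then Nrip3 (0.397), Jun (0.417), Txnip (0.440) and Nabp1 (0.451). Every gene whose mean log2 CPM reached 2 was compared, over groups that share 1 cell line.

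Other genes of the same pathways moved both ways in CFs. Of all genes, 23.9% were called higher and 25.3% lower in ENPP1+ATP medium at 24 h, and 25.3% and 27.5% in AMP medium. At 48 h the shares were 20.8% and 24.4% in ENPP1+ATP medium and 21.1% and 22.9% in AMP medium. Counts near these shares set nothing apart about a list. Of 31 further immediate early genes tested, 17 rose and 6 fell in ENPP1+ATP medium at 24 h (median 0.23) and 23 rose and 3 fell in AMP medium (median 0.57). In ENPP1+ATP medium Btg2, an antiproliferative factor, rose by 2.53 (SE 0.0989, adjusted p = 8.65e-13), and the orphan nuclear receptors Nr4a3 and Nr4a1 by 1.90 (SE 0.254) and 1.78 (SE 0.138). At 48 h Btg2 (2.41, SE 0.0991) and Klf4 (1.95, SE 0.0834), a stem cell and vascular factor, led the list, where 12 rose and 10 fell. Of 11 partner factors tested, 6 rose and 3 fell at 24 h. Atf3, a stress-induced partner of Jun proteins, rose by 1.44 (SE 0.0961, adjusted p = 1.07e-10) and Batf3 fell by 1.105. At 48 h 2 partner factors rose and 7 fell in ENPP1+ATP medium, and 2 rose and 5 fell in AMP medium.

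Among 15 feedback inhibitors, 5 rose and 5 fell in ENPP1+ATP medium at 24 h, with a median of −0.09. There 23.9% of all genes were called higher and 25.3% lower. Dusp1 and Dusp5, phosphatases that switch off MAP kinases, rose by 1.90 (SE 0.304, adjusted p = 0.000317) and 1.31 (SE 0.199, adjusted p = 4.69e-06), and Spry1, an inhibitor of receptor tyrosine kinase signalling, fell by 2.07 (SE 0.0820, adjusted p = 8.35e-16). Of 17 inducing factors and kinases, 4 rose and 6 fell, none by more than 0.50 among those named by size (Rps6ka3 −0.50, Crem 0.43, Rps6ka1 0.36). At 48 h 8 feedback inhibitors rose and 4 fell, and 7 inducing factors and kinases rose and 6 fell, in each of ENPP1+ATP and AMP medium. Of 17 genes known as AP-1 targets, 8 rose and 5 fell at 24 h in ENPP1+ATP medium (median 0.53), 12 rose and 0 fell in AMP medium (median 1.01), 11 rose and 0 fell in ENPP1+ATP medium at 48 h (median 0.68), and 12 rose and 2 fell in AMP medium at 48 h (median 0.52). In the same 4 comparisons, taken in that order, 23.9%, 25.3%, 20.8% and 21.1% of all genes were called higher and 25.3%, 27.5%, 24.4% and 22.9% lower. Against vehicle 5 targets rose and 0 fell in ATP medium at 24 h (median 0.27), where 4.77% of all genes were called higher and 6.32% lower. From ATP to ENPP1+ATP medium at 24 h, 4 rose and 5 fell (median 0.04), where 21.8% were called higher and 22.1% lower. At 48 h Ccnd1, which encodes cyclin D1, rose by 2.46 (SE 0.0827, adjusted p = 6.48e-17), the cytokine Lif by 1.94 (SE 0.144) and the urokinase gene Plau by 1.70 (SE 0.142). Of 13 heat shock genes, a mark of general stress, 3 rose and 6 fell in ENPP1+ATP medium at 24 h, with a median of −0.18. At 48 h 4 rose and 1 fell (median 0.05), and in AMP medium 3 rose and 6 fell at 24 h and 3 rose and 2 fell at 48 h.

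In NRVMs the media of the same names gave another pattern, and whether both cell types met the same preparations is not given in the sources used here. Fosl1, Fosb and Fos rose most in ATP or ENPP1+ATP medium, and Jun, Egr1 and Egr2 fell in each of the 3 nucleotide media. ATP medium and ENPP1+ATP medium each called 4 members higher and 3 lower, where 59.9% (30.2% higher, 29.7% lower) and 56.0% (28.6% higher, 27.4% lower) of 13461 genes were called. AMP medium called 1 higher and 3 lower, where 57.2% were called (29.2% higher, 28.0% lower). These shares are near the background of the whole table, so the counts set nothing apart about the members. The median of the members was 0.08, −0.02 and −0.20 in the 3 media.

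**Figure D3:**
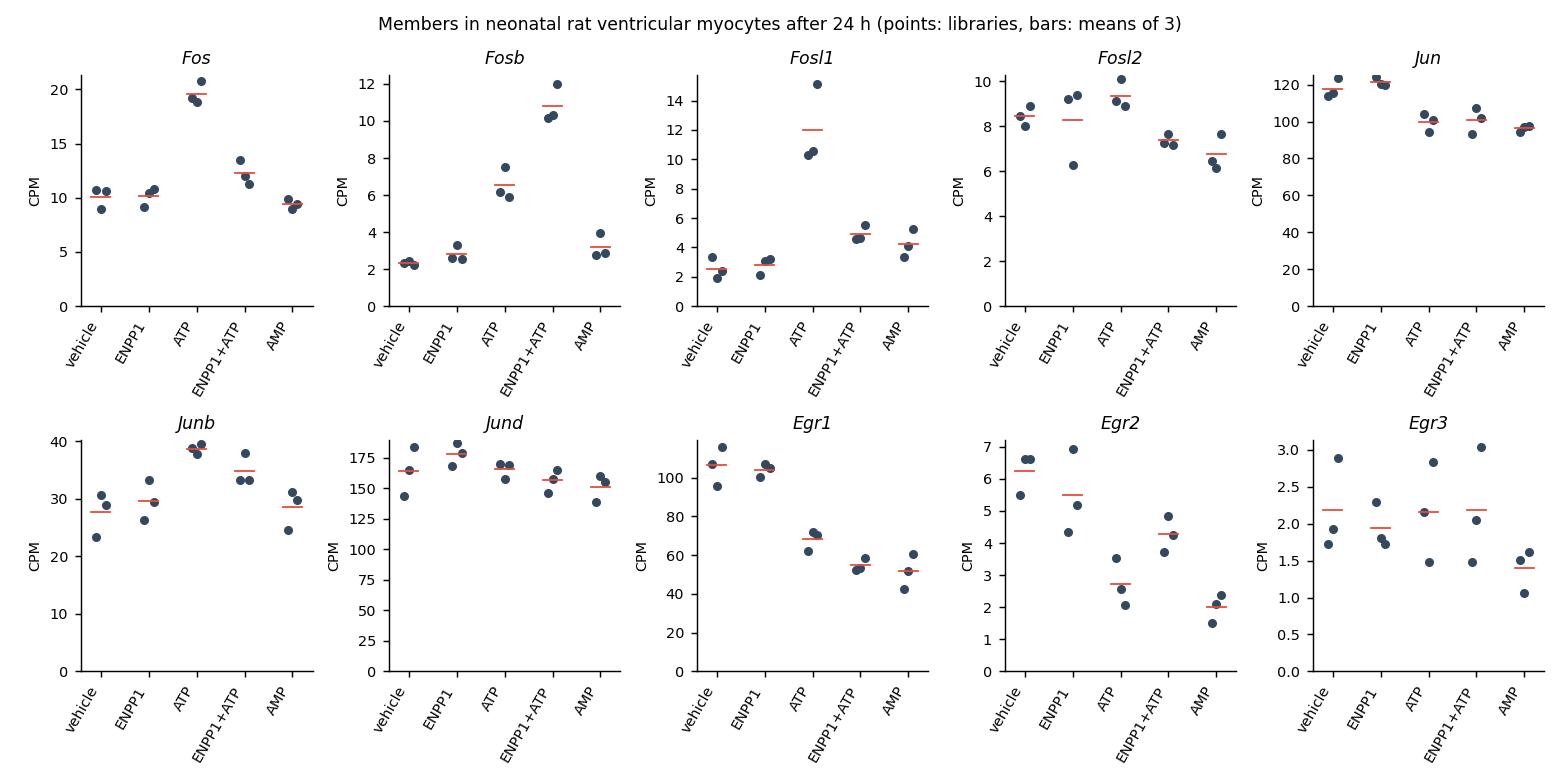
CPM of each member in NRVMs (vertical axis from 0) by medium after 24 h; points are libraries and bars the means of 3. Egr1 stood between 95.8 and 116 CPM in vehicle and between 42.7 and 71.7 in ATP, ENPP1+ATP and AMP medium, and Fosb was highest in ENPP1+ATP medium.

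Fosl1 in NRVMs stood at 3.37, 1.93 and 2.36 CPM in vehicle and 10.3, 10.6 and 15.1 in ATP medium, a rise of 2.22 (SE 0.199, adjusted p = 1.98e-12). It was lower in ENPP1+ATP medium, at 4.58, 4.66 and 5.56 CPM (0.95 above vehicle, SE 0.220, adjusted p = 0.000364), and in AMP medium at 3.36, 4.10 and 5.26 (0.72, SE 0.226, adjusted p = 0.00624), where the groups overlap and the call was lost without AMP replicate 3 (adjusted p = 0.0585) or vehicle replicate 2 (adjusted p = 0.0573). Fos gave 10.7, 8.96 and 10.65 CPM in vehicle, 19.2, 18.8 and 20.8 in ATP (0.95, SE 0.109, adjusted p = 3.57e-10), 13.45, 12.01 and 11.2 in ENPP1+ATP and 9.87, 8.98 and 9.395 in AMP medium. The ENPP1+ATP rise of Fos (0.27, SE 0.115, adjusted p = 0.0390) was lost with DESeq2 (adjusted p = 0.0957), without the filter on low counts (adjusted p = 0.0717), and without ENPP1+ATP replicate 1 or 2 or vehicle replicate 2 (adjusted p = 0.0583 to 0.201). Fosb gave 2.34, 2.41 and 2.21 CPM in vehicle, 6.15, 7.54 and 5.92 in ATP (1.49, SE 0.187, adjusted p = 3.91e-09) and 10.1, 10.35 and 12.02 in ENPP1+ATP medium (2.22, SE 0.178, adjusted p = 2.2e-14). In AMP medium Fosb gave 2.76, 3.96 and 2.87 CPM (0.46, SE 0.209, adjusted p = 0.0545), called higher without AMP replicate 1 or 3 (adjusted p = 0.0386 and 0.0478).

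Fosb thus stood higher in ENPP1+ATP than in ATP medium (0.73, SE 0.151, adjusted p = 0.000194), with no overlap, while Fos (−0.68, SE 0.105, adjusted p = 1.68e-06) and Fosl1 (−1.28, SE 0.178, adjusted p = 3.71e-07) stood lower. That comparison called 2 members higher and 2 lower, where 27.5% of genes were called (14.1% higher, 13.5% lower). The other member called higher was Egr2 (0.66, SE 0.214, adjusted p = 0.0166), lost without ATP replicate 2 or 3 or ENPP1+ATP replicate 2 (adjusted p = 0.0606 to 0.121). Egr1 (−0.32, adjusted p = 0.0518) was called lower there with DESeq2 (adjusted p = 0.0032), with the replicate block (adjusted p = 0.00123) and without any 1 of 5 libraries (adjusted p = 0.00124 to 0.0369). From ENPP1+ATP to AMP medium Fosb fell by 1.76 (SE 0.168, adjusted p = 1.5e-10), Egr2 by 1.10 (SE 0.228, adjusted p = 0.000663) and Fos by 0.38 (SE 0.115, adjusted p = 0.0274), 3 members where 9.66% of genes were called (3.85% as lower). The Fos call was lost with DESeq2 (adjusted p = 0.0616), without AMP replicate 2 or 3 or without ENPP1+ATP replicate 1 or 2 (adjusted p = 0.0585 to 0.166).

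Egr1 in NRVMs stood at 107, 95.8 and 116 CPM in vehicle, 62.1, 71.7 and 70.6 in ATP, 52.3, 53.6 and 58.35 in ENPP1+ATP and 42.7, 52.05 and 60.5 in AMP medium. All 9 libraries of these 3 media lay below all 3 of vehicle, and Egr1 fell by 0.64 (SE 0.105, adjusted p = 0.000183), 0.95 (SE 0.108, adjusted p = 7.34e-06) and 1.04 (SE 0.108, adjusted p = 3.42e-06). Egr2 went from 5.50, 6.61 and 6.62 CPM to 3.535, 2.55 and 2.06 in ATP (−1.20, SE 0.206, adjusted p = 2.92e-06), 3.73, 4.85 and 4.265 in ENPP1+ATP (−0.54, SE 0.195, adjusted p = 0.0173) and 1.51, 2.11 and 2.38 in AMP medium (−1.64, SE 0.219, adjusted p = 2.07e-08). The ENPP1+ATP call of Egr2 was lost without ENPP1+ATP replicate 1, vehicle replicate 2 or vehicle replicate 3 (adjusted p = 0.0563 to 0.0804). Jun fell from 114, 116 and 123.5 CPM by 0.24 (SE 0.0499, adjusted p = 6.89e-05) in ATP, 0.22 (SE 0.05005, adjusted p = 0.000261) in ENPP1+ATP and 0.29 (SE 0.0503, adjusted p = 4.58e-06) in AMP medium, with no overlap in any of the 3. Junb rose in ATP (0.48, SE 0.0964, adjusted p = 0.000106) and ENPP1+ATP medium (0.33, SE 0.0978, adjusted p = 0.00513), and the second call was lost without vehicle replicate 1 (adjusted p = 0.0529). Jund (144 to 184 CPM in vehicle, 139 to 170.1 in the 3 media), Fosl2 and Egr3 did not pass edgeR's test against vehicle in the 3 media. In AMP medium Jund was called lower without the filter on low counts (adjusted p = 0.0153) and Fosl2 lower with edgeR on DESeq2's size factors (adjusted p = 0.0493). Without vehicle replicate 1 Jund was called lower in ENPP1+ATP and AMP medium (adjusted p = 0.0362 and 0.00539), and without AMP replicate 3 or ENPP1 replicate 1 or 2 Fosl2 was called lower in AMP medium (adjusted p = 0.0262 to 0.0481).

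ENPP1 medium alone called no member and no gene in NRVMs (0.0%), with 0 members and 693 genes at an unadjusted p under 0.05 in edgeR's test and 1 gene called by DESeq2. The 95% interval of its difference from vehicle ran from −0.26 to 0.26 for Fos and from −0.26 to 0.20 for Egr1. The sum of fibroblast markers moved with the nucleotide media in these cultures. Col1a1 (5303 to 16790 CPM over all NRVM libraries) and Col3a1 (2222 to 7332) weigh most in it. Over the same libraries Gsn ran from 162 to 213 CPM, Dcn from 41.0 to 74.6 and Tcf21 from 3.98 to 59.9. The 9 markers of 10 in the table summed to 24930 to 26310 CPM in vehicle, 25090 to 25480 in ENPP1, 10540 to 11890 in ATP, 8439 to 8902 in ENPP1+ATP and 11710 to 12510 in AMP medium. The 7 cardiomyocyte markers of 8 in the table summed to 27060 to 27890 CPM in vehicle, 15020 to 16080 in ATP, 23110 to 23990 in ENPP1+ATP and 26560 to 27940 in AMP medium. Fewer cells of a type and less RNA of these markers per cell cannot be told apart in such libraries. The part of these markers in the falls of Jun, Egr1 and Egr2 was not tested.

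Related genes in NRVMs moved both ways in ENPP1+ATP medium, where 28.6% of all genes were called higher and 27.4% lower. Of 31 other immediate early genes 6 rose and 15 fell (median −0.14), with Myc, the growth factor-induced transcription factor, lower by 1.79 (SE 0.0808, adjusted p = 9.29e-23), Klf2 by 1.65 (SE 0.119) and Ier2 by 1.03 (SE 0.0945). Of 15 feedback inhibitors 1 rose and 9 fell (Spry1 −1.29, Dusp4 −0.91, Spry2 −0.88), and of 9 partner factors 1 rose and 6 fell, Jdp2 by 0.97. Of 13 AP-1 target genes 5 rose and 6 fell, with the chemokine Ccl2 higher by 1.35 and Lif by 1.18, and the growth factor Areg lower by 1.38. In ATP medium 10 of these targets rose and 2 fell (median 0.71), in AMP medium 5 rose and 4 fell (median 0.03), and from ATP to ENPP1+ATP medium 1 rose and 10 fell (median −0.69). In these 3 comparisons, taken in that order, 30.2%, 29.2% and 14.1% of all genes were called higher and 29.7%, 28.0% and 13.5% lower. Of 16 inducing factors and kinases 3 rose and 1 fell. Of 11 heat shock genes 6 rose and 3 fell, and Hspa1b, which has a near-identical copy in Hspa1a that can take its reads, rose by 2.775 (SE 0.256, adjusted p = 1.27e-12).

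In the injured heart the members were read from 7255 ENPP1CKO and 5240 control cells, clustered without these genes. Clusters were named from markers, and 6 classes are described: fibroblast-like (3710 and 1857 cells), macrophage-like (2078 and 2569), endothelial-like (933 and 194), smooth muscle or pericyte-like cells (158 and 73), T or NK cell-like (179 and 140) and dendritic-like (81 and 92). With 1 library per genotype there is no test. Levels are unique molecules per 1000000 of the class, with exact 95% Poisson intervals that cover counting error only. Of the barcodes kept, 62 occur in both libraries, and without them no member's ratio in the 3 largest classes left its counting interval. Isolation of cells from tissue is known to raise several of these genes. Free RNA in the droplets was not estimated, haemoglobin genes lead the largest ENPP1CKO fibroblast-like cluster, and the part of free RNA in these levels was not tested.

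Fibroblast-like cells carried the highest Fos, Jun and Egr1 of the 6 classes in both libraries. In the control library Fos stood at 3636 (3599 to 3673) in fibroblast-like, 2350 (2194 to 2515) in smooth muscle or pericyte-like, 1498 (1399 to 1603) in endothelial-like, 1363 (1339 to 1388) in macrophage-like, 1060 (962 to 1167) in dendritic-like and 520 (441 to 608) in T or NK cell-like cells. No neighbours in that order had overlapping intervals. Jun ran in the same order, from 1575 (1551 to 1600) in fibroblast-like to 206 (157 to 264) in T or NK cell-like cells, where the intervals of macrophage-like (276) and dendritic-like cells (273), and of dendritic-like and T or NK cell-like cells, overlap. Egr1 ran from 699 (683 to 716) in fibroblast-like and 485 (415 to 562.5) in smooth muscle or pericyte-like cells to between 77.6 and 89.0 in macrophage-like, dendritic-like and T or NK cell-like cells, whose intervals overlap. Egr2 (111) and Egr3 (21.3) were also highest in fibroblast-like cells among the 6 classes, Egr3 with an interval that overlaps those of dendritic-like, smooth muscle or pericyte-like and T or NK cell-like cells.

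Junb and Fosl2 had another order, led by lymphoid cells. In the control library Junb was highest in T or NK cell-like cells at 2929 (2737 to 3130), followed by macrophage-like (1883) and dendritic-like cells (1800), whose intervals overlap, and lowest in endothelial-like cells at 985 (905 to 1071). Fosl2 stood at 277 (220 to 343) in T or NK cell-like and 202 (193 to 212) in macrophage-like cells, against 41.0 (37.2 to 45.1) in fibroblast-like cells. The ENPP1CKO library put the same class first for each of these 7 genes. Fosb did not keep its first class. In control it was led by fibroblast-like (340) over macrophage-like cells (264). In the ENPP1CKO library macrophage-like cells (430.5) stood above fibroblast-like ones (383), and neither pair of intervals overlaps. Fosl1 was close to absent from the heart cells, with 31 and 42 counts over all cells, although it reached 128 CPM in CFs in AMP medium.

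**Figure D4:**
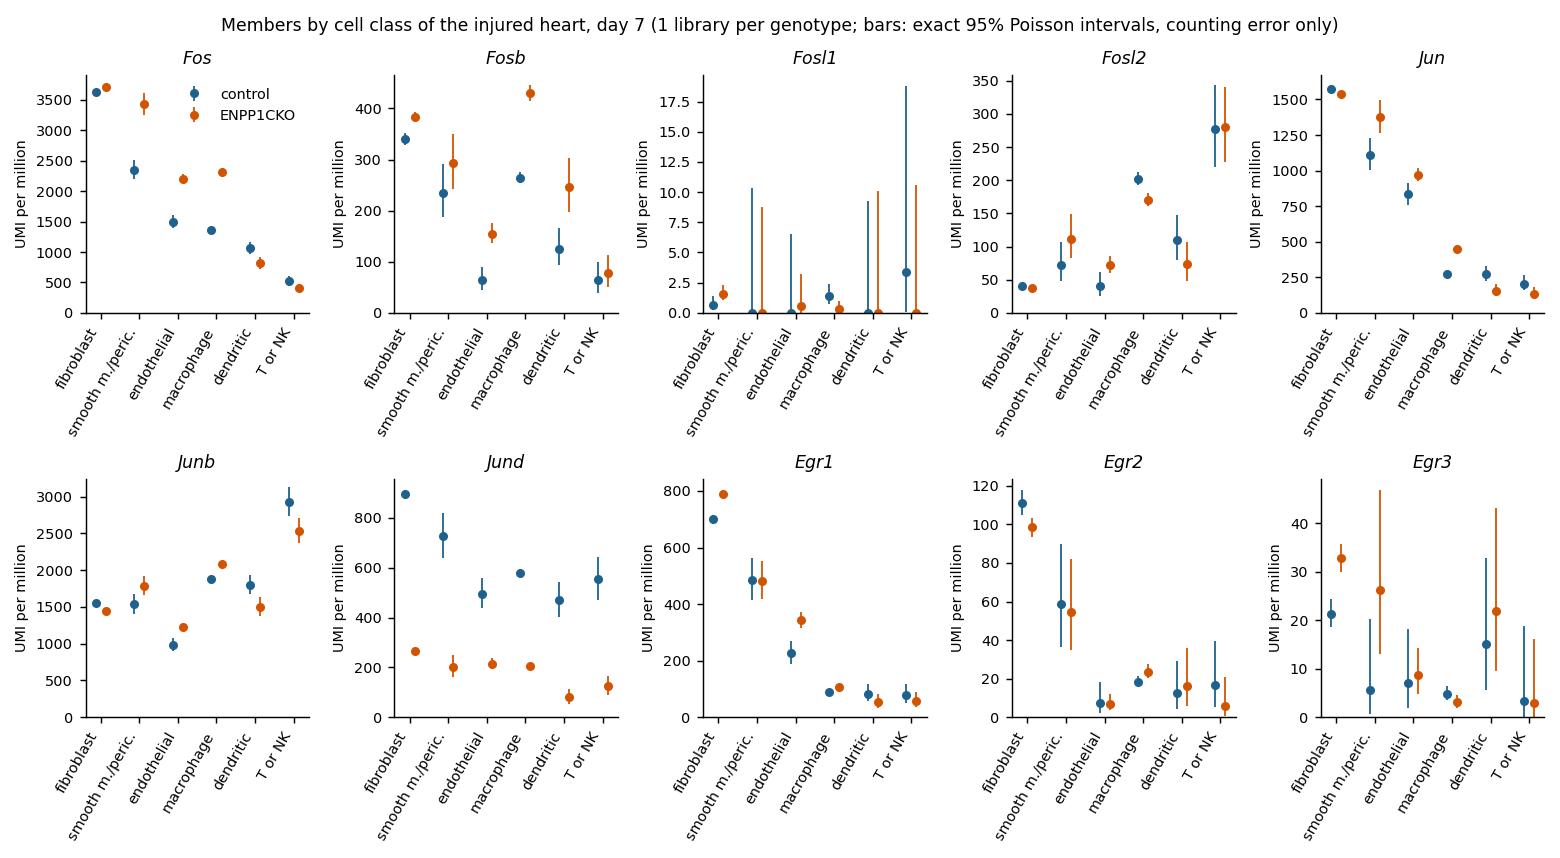
Unique molecules per 1000000 (CPM) for each member in 6 cell classes of the injured heart (control blue, ENPP1CKO orange); bars are exact 95% Poisson intervals, for counting error only. Jund in ENPP1CKO cells lay below control in each class shown, at 264 against 895 in fibroblast-like cells, while Fos in fibroblast-like cells stood at 3719 and 3636.

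Jund was lower in ENPP1CKO cells in each of the 6 classes. It stood at 895 (877 to 914) in control and 264 (256 to 272) in ENPP1CKO fibroblast-like cells (log2 ratio −1.76), at 578 and 207 in macrophage-like (−1.48), 495 and 213 in endothelial-like (−1.22), 726 and 202 in smooth muscle or pericyte-like (−1.84), 553 and 124 in T or NK cell-like (−2.16) and 469 and 79.3 in dendritic-like cells (−2.56). None of these pairs of intervals overlap. Of 1579 genes with at least 200 counts in each of the 3 largest classes, 3 (0.19%) were at least 2-fold lower in ENPP1CKO cells in all 3 classes: Igfbp7, Jund and Klf2. These were named after their values were seen. The gene Tsc22d3, also named after its values were seen, was the 1 at least 2-fold higher in all 3. Within clusters the ratio of Jund lay between −2.56 and −1.16 in 14 of the 15 plotted, and was −0.12 in the macrophage-like cluster led by Ccl24 (493 and 535, from 53 ENPP1CKO and 813 control cells). With cells thinned to 1000 counts and shallower cells left out, the ratio was −1.78 in fibroblast-like cells, −1.45 in macrophage-like cells and −1.34 for the endothelial-like class. That left out 110 ENPP1CKO and 44 control cells of the first class, 66 and 196 of the next, and 241 and 18 endothelial-like cells. Whether the difference belongs to the genotype or to the 2 library preparations cannot be told apart.

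The ratios of the other members varied by class. A ratio past 1.5-fold is used here as a mark of size, chosen after values were seen, among genes with at least 200 counts in both libraries together. In fibroblast-like cells 1 of 9 members was higher and 1 lower, where 2.97% and 3.40% of 8288 genes were. The higher one was Egr3, at 32.7 (30.0 to 35.6) against 21.3 (18.6 to 24.3), a log2 ratio of 0.62 that was 0.15 without the cluster led by haemoglobin genes, which holds 1680 ENPP1CKO and 260 control cells, and 0.43 with thinned cells. Fos (0.03), Jun (−0.04), Junb (−0.10), Fosb (0.17), Egr1 (0.18), Egr2 (−0.18) and Fosl2 (−0.11) lay within 0.2 of 0 on the log2 scale, though with thinned cells Fosl2 stood at 0.36 and Fos at −0.03. The largest cluster of this class was that one in the ENPP1CKO library and the one led by Eln in the control library (823 control cells), and within these the ratio of Fos was 0.11 and −0.15. Egr2 within them was −0.27 and −0.78, the last at 83.1 (75.5 to 91.2) in ENPP1CKO and 142.5 (131 to 155) in control cells and past 1.5-fold. Across the 6 fibroblast-like clusters the ratio of Egr2 ran from −1.01 to 0.45.

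In macrophage-like cells 3 of 8 members were higher past 1.5-fold and 1, Jund, was lower, where 1.52% and 7.65% of 6049 genes were. Fos stood at 2318 (2283 to 2353) in ENPP1CKO and 1363 (1339 to 1388) in control cells (0.77), Fosb at 430.5 and 264 (0.71) and Jun at 452 and 276 (0.71). The clusters of this class are unevenly filled: that led by Ccl24 is mostly control, and there Fos was 464 and 431. Without that cluster the ratio of Fos was 0.57, of Fosb 0.53, of Jun 0.64 and of Egr1 0.67, the last against 0.27 with it. Fos and Fosb were then under the 1.5-fold mark, and Egr1 was past it. Within the 2 largest clusters of ENPP1CKO cells, Fos differed by 0.30 (led by Ccl12) and 0.79 (led by Gpnmb). With thinned cells the ratio of Egr1 in this class was 0.05 (−0.22 to 0.32). That of Fosl2 was −0.43, against −0.25 with all counts. Fos, Fosb and Jun then stood at 0.90, 0.80 and 0.74.

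In endothelial-like cells 2 of 6 members were higher and 1 lower past 1.5-fold, where 6.81% and 5.36% of 1791 genes were. Fosb stood at 155 (137 to 175) in ENPP1CKO and 64.1 (44.9 to 88.8) in control cells (1.275) and Egr1 at 343 (316 to 372) and 226 (189 to 269) (0.60). Fos was higher by 0.56 (2205 and 1498). The median depth of its 933 ENPP1CKO and 194 control cells was 1473 and 2595.5 counts, and with thinned cells the ratio of Egr1 was 0.37 and that of Fosb 1.62. The part of depth was not tested further. In the smaller classes the ratio of Fos was −0.375 (95% interval −0.59 to −0.16) in dendritic-like and −0.36 (−0.71 to −0.02) in T or NK cell-like cells, and −0.61 (−1.06 to −0.16) and −0.18 (−0.78 to 0.42) with thinned cells. That of Jun was −0.81 (−1.30 to −0.33) and −0.60 (−1.18 to −0.03), and −0.34 (−1.36 to 0.65) and −1.13 (−2.29 to −0.04) with thinned cells. In smooth muscle or pericyte-like cells, with a median depth of 2016.5 ENPP1CKO and 3984 control counts, Fos (0.55) and Jun (0.31) had ratios of 0.21 (−0.04 to 0.46) and 0.31 (−0.08 to 0.72) with thinned cells. Heat shock genes, summed, had a log2 ratio of 0.10 in fibroblast-like cells, 0.15 in macrophage-like cells and −0.05 for the endothelial-like class.

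**Figure D5:**
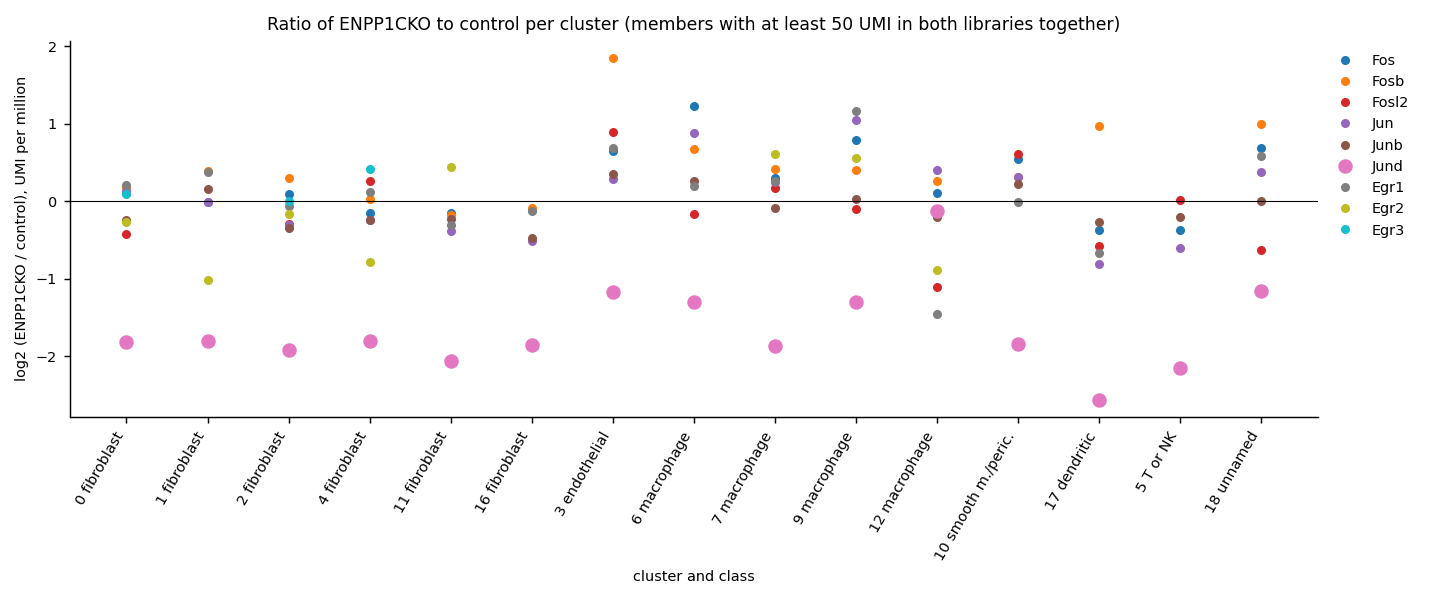
Log2 ratio of ENPP1CKO to control (vertical axis) for members with at least 50 counts, in 15 clusters labelled by class, 1 of them unnamed; 1 library per genotype, no test. Jund lies below 0 in each cluster, at −0.12 in macrophage-like cluster 12 and at −1.16 or lower in the other 14.

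Of the related lists, Klf2, a transcription factor induced by flow, was lower in ENPP1CKO cells in all 3 large classes (−1.59, −1.82 and −1.20 in fibroblast-, macrophage- and endothelial-like cells). Dusp1 was higher in macrophage-like (1608 and 1101, 0.55) and endothelial-like cells (934 and 625, 0.58). Cebpb, a factor of macrophage activation, was lower in macrophage-like cells (72.8 and 280, −1.94) and is also among the genes that lead the cluster of mostly control cells. Among AP-1 targets past 200 counts, Ccl2 (−0.87) and Hbegf (−0.79) were lower in fibroblast-like and Cd44 (−1.13) in macrophage-like cells, and Areg (1.04) was higher in macrophage-like and Ccnd1 (0.85) in endothelial-like cells. Among heat shock genes, Dnajb1 in endothelial-like cells (127 and 51.7, 1.30) had the largest ratio of those named.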

How the data were processed

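RNA sequencing libraries of CFs and NRVMs and droplet libraries of heart nonmyocytes were analysed. The authors deposited raw counts per gene for each bulk library, and filtered matrices of molecule counts per gene and cell for the 2 single-cell libraries. The submitters' processing notes name STAR 2.5.3a, Cell Ranger, mm10 and rn6; the annotation and use of strand are not given in the sources used here. No value column was left out (0).

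Bulk counts were tested with edgeR 4.0.16 (R 4.3.3; TMM scaling, filterByExpr, robust quasi-likelihood fit, 1 mean per group), separately for 20 CF and 15 NRVM libraries, with Benjamini-Hochberg adjustment over 17879 and 13461 genes and a threshold of 0.05. The study's methods call its replicates biological, but whether libraries came from separate cultures is not given in the sources used here, so p-values measure only the spread between these samples. Standard errors were taken from the fold change and the test statistic. The fit was run on simulated data with few changed genes and the same spread for every gene. That setting is unlike these data, so it does not vouch for the calls here. Members and gene lists were chosen with earlier results of these data known, so no p is independent evidence. Beyond members, the 3 genes of each list with the largest change among called genes averaging log2 CPM 1 or more were named (in single cells, up to 2 past 200 counts). Some genes that this rule names are not reported here.

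Cells were kept from 200 genes upwards if mitochondrial counts did not pass 20%. Called doublets (151 ENPP1CKO and 69 control) were removed. The rest were clustered in scanpy 1.11.5 on 2000 variable genes, 30 components and resolution 0.5, leaving out members, listed genes and Enpp1. Counts were summed per class.

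Alternatives were DESeq2 1.42.0, DESeq2's size factors in edgeR, no filter on low counts, a replicate block and leaving out each library. For single cells they were other filters, another resolution, doublets kept, thinned cells and TMM scaling. Leaving out a cluster or shared barcodes, and the 1.5-fold mark, were chosen after seeing the data.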

Additional observations from a re-analysis of the deposited data

Results flagged for a closer look

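In CFs the difference from vehicle changed between 24 h and 48 h by edgeR's test of that change itself. For ENPP1+ATP medium the change (48 h minus 24 h, log2) was −2.68 for Egr2, −2.026 for Fos, −2.008 for Egr1, −1.544 for Fosb, −1.357 for Egr3, −1.121 for Jun and −0.4181 for Jund, and 1.096 for Fosl1 and 0.5463 for Fosl2. The Egr3 value was not called with DESeq2 (adjusted p = 0.0507) or without the filter on low counts (adjusted p = 0.0793). For AMP medium it was −3.437 for Egr2, −3.148 for Egr1, −2.862 for Fos, −2.529 for Fosb, −1.692 for Egr3, −1.528 for Jun, −0.8707 for Junb and −0.5864 for Jund, and 0.8564 for Fosl2.

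Jun, Egr1 and Egr2 moved in opposite directions in CFs and NRVMs at 24 h, with the libraries of medium and vehicle apart in each cell type. The share of all genes whose libraries stand apart was not counted, and the difference between the cell types was not tested. In ATP medium Jun differed from vehicle by 0.1981 in CFs and −0.2382 in NRVMs, Egr1 by 0.4906 and −0.6386, and Egr2 by 0.2679 and −1.201. The 3 CF values in ATP medium did not pass edgeR's test against vehicle, while DESeq2 called Jun (adjusted p = 0.0304) and Egr1 (adjusted p = 0.0315). In ENPP1+ATP medium Jun differed by 2.066 in CFs and −0.2182 in NRVMs, Egr1 by 2.635 and −0.9546, and Egr2 by 1.651 and −0.5381. In AMP medium Jun differed by 2.578 and −0.2865, Egr1 by 3.757 and −1.039, Egr2 by 2.978 and −1.639, and Egr3 by 1.215 and −0.6351. The value of Egr3 in NRVMs did not pass the test (adjusted p = 0.0794, edgeR).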

How the results depend on the processing

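No value changed sign among those called. The number of members called in ATP medium at 24 h (3) was 5 with DESeq2 and 5 without the filter on low counts, and 1 to 4 without single libraries. At 48 h in ATP medium (3) it was 6 without that filter and 2 to 5 without single libraries, and in ENPP1 medium at 48 h (0) it was 1 without the filter. For ENPP1+ATP medium at 48 h (8) it was 5 to 8 without single libraries. Between the times it was 5 without the filter and 1 to 4 without single libraries in ENPP1 medium (3), 2 and 0 to 2 in vehicle (1), and 1 to 3 without single libraries in ATP medium (2). Fibroblast-like members past 1.5-fold (2) were 1 with thinned cells and 1 without the haemoglobin-led cluster. Of 23 single-cell ratios, thinning moved 9 past their counting interval and TMM scaling 5, all macrophage-like in the latter (Fos 0.87, Fosb 0.81, Jun 0.81, Junb 0.25 and Jund −1.38). The cause was not tested. Without the filter on low counts Jund in ENPP1+ATP medium at 48 h, Fosl1 for the change with time in AMP medium, Junb between the times in ENPP1+ATP medium and, in NRVMs, Junb between AMP and ENPP1+ATP medium and Egr1 between ENPP1+ATP and ATP medium were also called. Of 3800 CF values without single libraries, 59 lost a call and 29 gained one, and of 900 in NRVMs 16 and 18. Over all genes, AMP against ENPP1+ATP medium at 48 h (29) gave 125 with DESeq2, 322 without the filter 47 with the replicate block and 2 to 108 without single libraries. ENPP1 medium against vehicle (0) gave 26 genes at 24 h and 180 at 48 h without the filter, and 129 at 48 h without ENPP1 replicate 2. In NRVMs it (0) gave 1 with DESeq2, 14 without the filter and up to 2 without single libraries. Without a library of the groups compared, the fewest genes called were 920 (of 1983) and 646 (of 1400) for ATP medium at 24 h and 48 h, 255 (of 1118) for AMP against ENPP1+ATP medium at 24 h, and 235 (of 873), 352 (of 1421) and 1387 (of 2643) between the times in vehicle, ENPP1 and ATP medium.

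Correlations of same-numbered libraries' deviations ran from −0.112 to 0.277 over 90 CF pairs (median 0.0125, 6 over 0.1) and from −0.166 to 0.124 over 30 NRVM pairs (median 0.0143, 1 over 0.1), so the numbers were not taken to pair samples. With the replicate block, Jun in ATP medium at 48 h (0.23, adjusted p = 0.04085, edgeR), Egr1 in NRVMs between ENPP1+ATP and ATP (−0.32, adjusted p = 0.00123) and Junb in NRVMs between AMP and ENPP1+ATP (−0.29, adjusted p = 0.00857) were called; members called were then 4 in ATP medium at 48 h, and no other member's call changed. With 2 CF libraries per group and 1 single-cell library per genotype, the spread rests on few samples. Intervals in single cells cover counting error only.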
